A study of Homo sapiens with 6 samples.

Results

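CHL-1 cells, an established human melanoma line, were compared after a short proteotoxic treatment and without it by ribosome profiling, the sequencing of the messenger fragments that ribosomes protect from nuclease. The comparison rests on 4 of the series' 6 libraries and 2 of its 3 deposited tables, chosen by the treatment named in the labels. The treated cells had received 10 mM L-azetidine-2-carboxylic acid (AZC), a proline analog, and the proteasome inhibitor MG132 at 20 µM, both for 20 minutes, and the parental cells are labelled untreated. The remaining group is a CHL-1 line edited with CRISPR at SNORD50A/B, whose label names neither agent. Both compared groups were grown in the same serum-containing medium and broken open with cycloheximide present, a drug that stalls ribosomes where they stand. In each group of 2 libraries, 1 is labelled as depleted of ribosomal RNA and the other is not. No group received AZC alone or MG132 alone, so their parts cannot be told apart. Each table pools its group's libraries, no library has a column of its own, and no difference below could be tested against a spread between replicates.

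AZC is taken up in place of proline and yields proteins that fold poorly, while MG132 blocks their degradation by the proteasome. Cells meet such a load with HSF1, which drives cytosolic chaperone genes, and with kinases that phosphorylate the initiation factor eIF2 alpha. Phosphorylated eIF2 lowers initiation on most messengers and favours a few with short upstream reading frames, ATF4 first among them, in what is called the integrated stress response. Footprint depth on a messenger reflects both how much messenger there is and how densely ribosomes stand on it, and these cannot be told apart here because no total RNA was compared.

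The tables hold 400 bins per RefSeq transcript, of which 100 cover the 5′ UTR, 200 the coding sequence and 100 the 3′ UTR. Summed depth, in units of 1000000, was 473.7 in the parental and 367.3 in the treated table. A level below is normalised depth, the depth of a transcript per 1000000 of its table's total, and levels are compared between tables and not between genes, since gene lengths were not used. Of 17982 transcripts listed in both tables, 17788 had a gene name, which gave 9760 genes. Of these, 7279 exceeded a minimum depth in each table (3187 parental, 2614 treated, the 25th percentile of its rows) and were compared. Of 9 melanoma markers 8 were listed in both tables, with SOX10 at 395.7 and 322.5, S100B at 29.8 and 41.4, CSPG4 at 78.8 and 51.1 and PAX3 at 10.1 and 13.05. The pigment genes PMEL and MLANA were at 2.48 or below in both tables, DCT at 4.14 and 7.55 and their regulator MITF at 6.14 and 3.94, while TYR was not listed. Of 15 markers of keratinocytes, immune, endothelial, erythroid and epithelial cells, KRT10 and HBA1 were listed, with summed levels of 16.9 and 12.8.

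A limit of 2-fold (log2 ratios from 1 up or from -1 down) marks the larger differences and is not a test. Summed over all bins, 63 of 7279 genes exceeded it on the higher side in the treated cells, 0.866% of those compared, and 2.4% exceeded it on the lower side. The split of the calls moved with the scaling: 26.5% of them were on the higher side, and 46.6% when totals left out the most abundant 1% of rows. The median log2 ratio of all genes was -0.05. The coding sequence was also read in 4 equal segments of 50 bins, numbered from the start codon. Of the 63 higher genes, 50 were higher in each segment, as were 6.26% of all genes compared. Of the lower genes, 94.3% were lower in each, against 18.9% of all genes. The segments are pieces of the same sum and are not replicates. Both sets of genes were chosen by that sum, so their agreement in direction follows largely from the choice and is no separate finding. With a level minimum 4 times higher, 10 genes were past 2-fold on the higher side and 32 on the lower. The minimum leaves out genes near absent from a table. Of genes that exceeded it in the treated table alone, 27.2% (74 genes) were past 2-fold, and of the 590 genes that exceeded it in the parental table alone, 29.8% were.

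**Figure D1:**
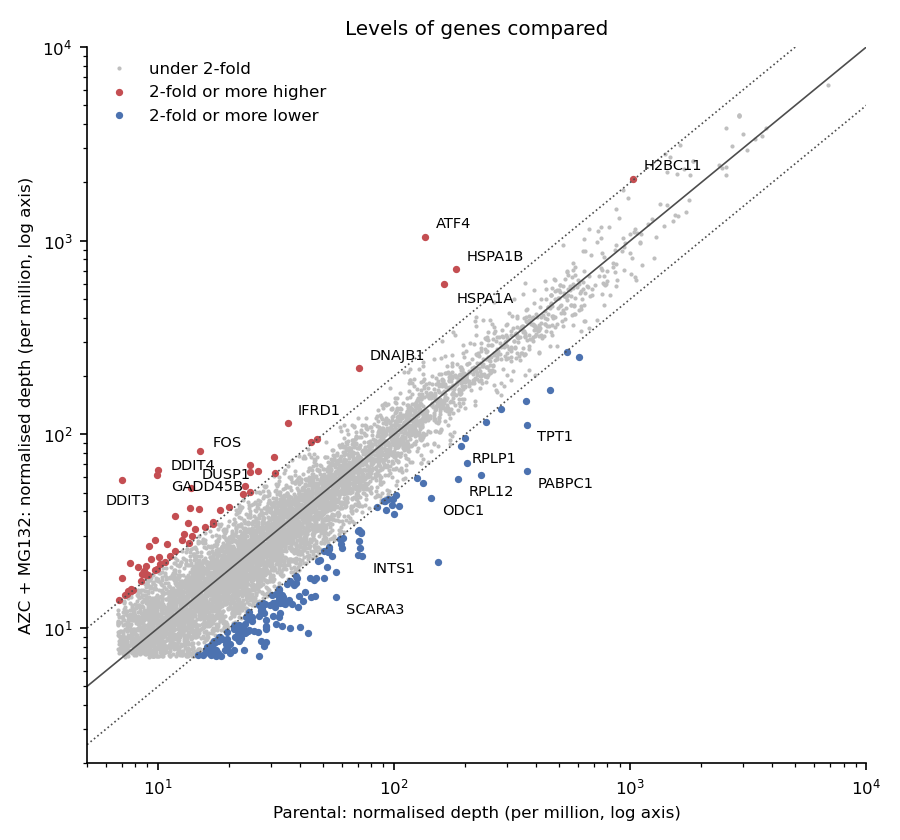
Normalised depth of each gene compared in the parental table (x axis) and in the AZC + MG132 table (y axis), both per 1000000 of the table's total on log axes. Each point is 1 gene, the solid line marks equal levels and the dotted lines 2-fold. ATF4, HSPA1A and HSPA1B stand above the 2-fold line at high levels, PABPC1 and TPT1 below it.

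The integrated stress response was led by its transcription factors. ATF4 (NM_001675), which drives genes of amino acid supply and redox balance, stood at a level of 135.2 in the parental and 1048.5 in the treated table, a log2 ratio of 2.96. In its coding bins alone the level was 33.5 in the parental and 691.9 in the treated table. The ratio was not even along the coding sequence, with log2 values of 3.33, 4.91, 5.29 and 5.16 in segments 1 to 4. DDIT3, a pro-apoptotic factor that ATF4 induces, had 1.90 in its coding bins in the parental and 28.98 in the treated table, and 4.88 and 23.6 in its 5′ UTR. DDIT4, an inhibitor of mTORC1 signalling, stood at 7.95 and 50.8 in coding bins. PPP1R15A, the phosphatase subunit that reverses eIF2 alpha phosphorylation, was under the level minimum in the parental table, with 5.64 there and 44.8 in the treated table. Its constitutive counterpart PPP1R15B was at 45.9 and 79.6.

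The enzymes and transporters downstream of ATF4 mostly stood near their parental levels. Of 32 genes on the list of this response, 27 were in both tables and 21 were compared, of which 3 were past 2-fold, all higher (ATF4, DDIT3 and DDIT4), beside 0.866% of all genes. The median log2 ratio of the list was 0.14, and 13 of its 21 members were above 0. ASNS, asparagine synthetase, was at 52.8 in coding bins in the parental and 56.6 in the treated table. PHGDH and PSAT1, of serine synthesis, were at log2 ratios of 0.21 and 0.18. SLC7A5 and XPOT, a transporter of large neutral amino acids and a tRNA exporter, were lower, at -0.62 and -0.94. CHAC1, a glutathione-degrading enzyme of the same response, had a treated level of 27.1, of which 15.7 lay in coding bins, and no row in the parental table, so no ratio is given.

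Several messengers known for upstream reading frames differed more in coding bins than in the 5′ UTR, though over the list the median log2 ratio was 1.04 in the 5′ UTR and 0.64 in coding bins. Of 20 genes on this list, chosen with the earlier results in view, 16 were compared, with a median of 0.73 over all bins and 14 above 0, beside 3255 of 7279 genes in all. ATF5, a relative of ATF4, was at 8.18 in coding bins in the parental and 21.8 in the treated table, while its 5′ UTR was at 13.7 and 19.3. In the parental table its coding depth lay almost wholly in the first 20 bins, 7.36 of 8.18, and those bins were nearly level in the treated table, at 8.17. The difference lay behind them, with log2 ratios of 3.32, 3.88 and 4.55 in segments 2 to 4 against 0.58 in segment 1. Behind the first 20 bins the parental windows held at most 0.52 and mostly near 0, so these ratios are uncertain in size. SLC35A4, whose message carries a translated upstream frame, was at 0.79 and 4.42 in coding bins and at 12.02 and 18.3 in its 5′ UTR. AZIN1, an inhibitor of antizyme, was at 53.4 and 143.9 in coding bins and 104.1 and 151.9 in the 5′ UTR, with log2 ratios between 1.34 and 1.51 in each segment. IFRD1, a stress-regulated messenger with an upstream frame, was at 21.5 and 85.1 in coding bins. CEBPB stood at a log2 ratio of 0.99 over all bins and HSPA5, the HSP70 of the endoplasmic reticulum, at 0.66. Over all bins ODC1, the first enzyme of polyamine synthesis, was the member past 2-fold on the lower side, at -1.62, and UCHL5, at -0.21, the other below 0. CDKN1B and MDM2 were at 0.26 and 0.02 over all bins. With coding bins alone, each table scaled to its coding total, they were at -0.69 and -0.22, against the pattern above. Depth near a start codon can also come from an overlapping upstream frame, which the bins cannot separate.

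**Figure D2:**
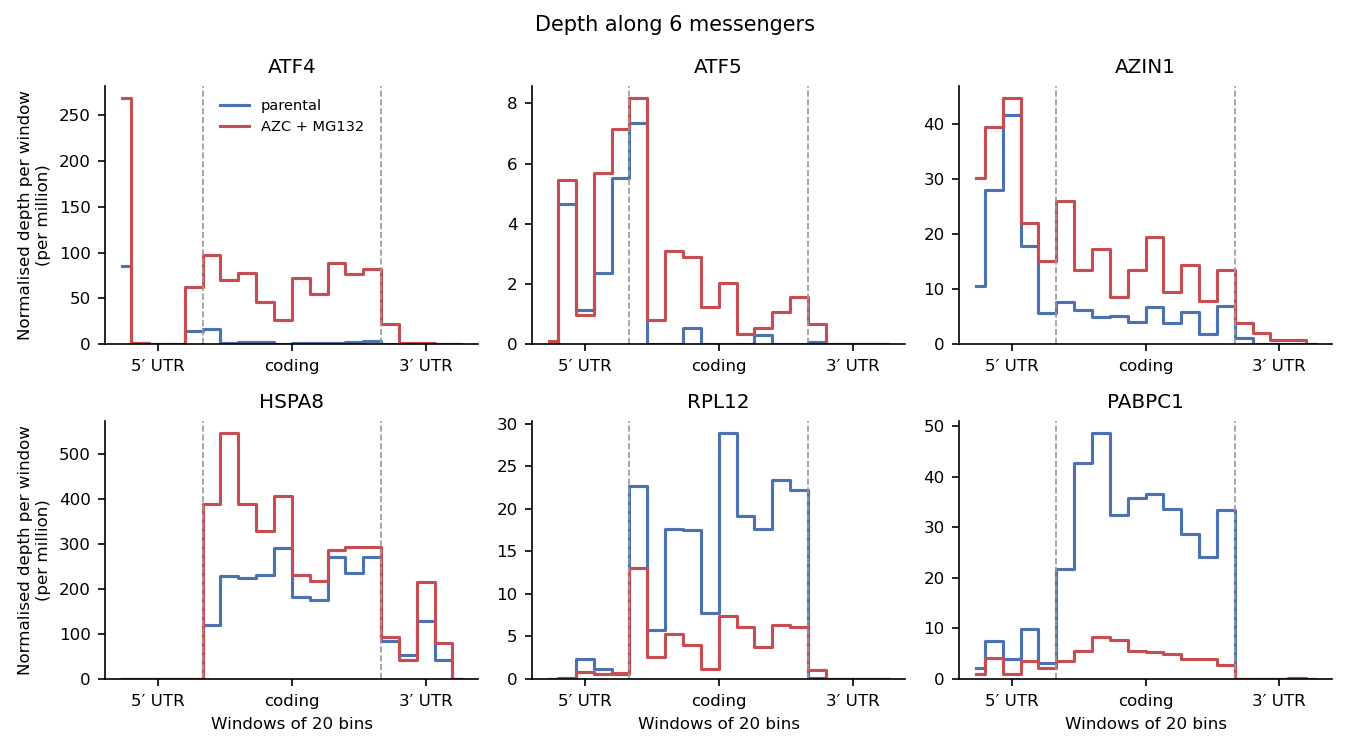
Normalised depth (y axis, per 1000000) in windows of 20 bins along the 5′ UTR, coding sequence and 3′ UTR (x axis, regions parted by dashed lines) of 6 messengers in the parental and AZC + MG132 tables. In ATF4 the coding windows of the parental table hold 16.5 in the first and at most 3.13 after it, against 26.1 to 97.3 in the treated table, and PABPC1 is lower in every coding window.

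Within the ATF4 leader the depth sat at both ends. Its first 20 bins held 85.6 in the parental and 268.6 in the treated table, its last 20 bins held 14.6 and 62.4, and the 60 bins between held at most 1.44 per window in either table. In ATF4 the coding windows after the first 20 bins ranged from 0.42 to 3.13 in the parental and from 26.1 to 88.8 in the treated table. These windows are pieces of the same pooled sum and are not replicates. The edited line, whose label names no agent, held 178.3 in the ATF4 5′ UTR and 51.8 in the coding bins.

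Among heat shock genes a few stood far above the parental level and most stood near it. The inducible HSP70 genes HSPA1A and HSPA1B stood at 162.1 and 183.4 in the parental and 594.6 and 711.6 in the treated table. These copies can share reads, and so can HSPA1L, at 13.7 and 41.6, so their separate values are uncertain. DNAJB1, the J-domain partner of HSP70, was at 70.7 and 218.8, and DNAJB4 at 9.69 and 28.5. HSPA6, an HSP70 found mainly under stress, was at 2.12 in the parental table, under the minimum, and at 25.4 in the treated table. BAG3, a co-chaperone of HSP70 in autophagy, was at 37.99 and 64.7. Of 26 HSF1 targets compared, 5 were past 2-fold, all higher and all of the HSP70 and DNAJB families, beside 0.866% of all genes. The median log2 ratio was 0.12, with 14 of 26 above 0, beside 44.7% of all genes. HSP90AA1 was at 0.24, HSP90AB1 at -0.06 (above 0 under 3 of the 9 other settings), the mitochondrial HSPD1 at -0.26 and HSF1 itself at -0.73. HSPA8, the constitutive HSP70, stood at 2548.7 and 3814.0, and its log2 ratios were 1.29, 0.55, 0.26 and 0.18 in segments 1 to 4.

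Immediate early genes, which are transcribed within minutes of a stimulus without new protein, included several of the highest ratios. FOS was at 15.02 in the parental and 81.6 in the treated table, and GADD45B, a stress-induced growth arrest gene, at 9.89 and 62.02. DUSP1, a phosphatase that turns off MAP kinases, was at 13.8 and 53.1. These 3 were higher in each coding segment, FOS with log2 ratios of 2.45, 1.90, 2.31 and 2.67. Of 19 members compared, 15 were above 0, beside 44.7% of all genes, and the median was 0.50. CCN1, DUSP1, FOS, GADD45B, IER2 and KLF10, 6 of the 19, passed 2-fold on the higher side, beside 0.866% of all genes. Members above the minimum in the treated table alone had to be higher there and stand outside these counts. JUN was at 3.61 in the parental and 24.1 in the treated table, ZFP36 at 1.46 and 9.60 and IER5 at 4.98 and 17.96. MYC was at 110.2 and 111.98 and NR4A1 at 83.7 and 58.1. Of growth arrest and p53 targets, 9 were compared and 2 were past 2-fold, beside 0.866% of all genes: GADD45B, already counted above, and PMAIP1, a BH3-only protein, at a log2 ratio of 1.54. The ERK feedback genes had a median of -0.02 over 8 members, whose sign changed under 6 of 9 other settings.

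Replication-dependent histones, whose messengers end in a stem-loop and not a poly(A) tail, were all on the higher side. All 29 members compared had log2 ratios above 0, beside 44.7% of all genes. They ran from 0.05 for H1-4 to 1.023 for H2BC11, with a median of 0.61. H2BC11 was at 1030.1 in the parental and 2093.1 in the treated table and H2BC5 at 1027.7 and 2049.4. Of 8 H2B genes, 7 lay at 0.86 or higher, while the linker histones H1-4 and H1-5 were at 0.05 and 0.10. The near-identical copies share reads, so these are not 29 separate values. In 4 of the 29 the 5′ UTR bins held within 5% of the coding depth in both tables, as in 42 of all genes compared, and whether their 5′ UTR is a separate measurement was not tested. Whether the treated libraries differed in the share of messengers without a poly(A) tail or in cell cycle phase was not tested, and the 29 cell cycle and replication genes had a median of -0.06, between -0.47 for TYMS and 0.47 for PCNA, both of S phase.

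**Figure D3:**
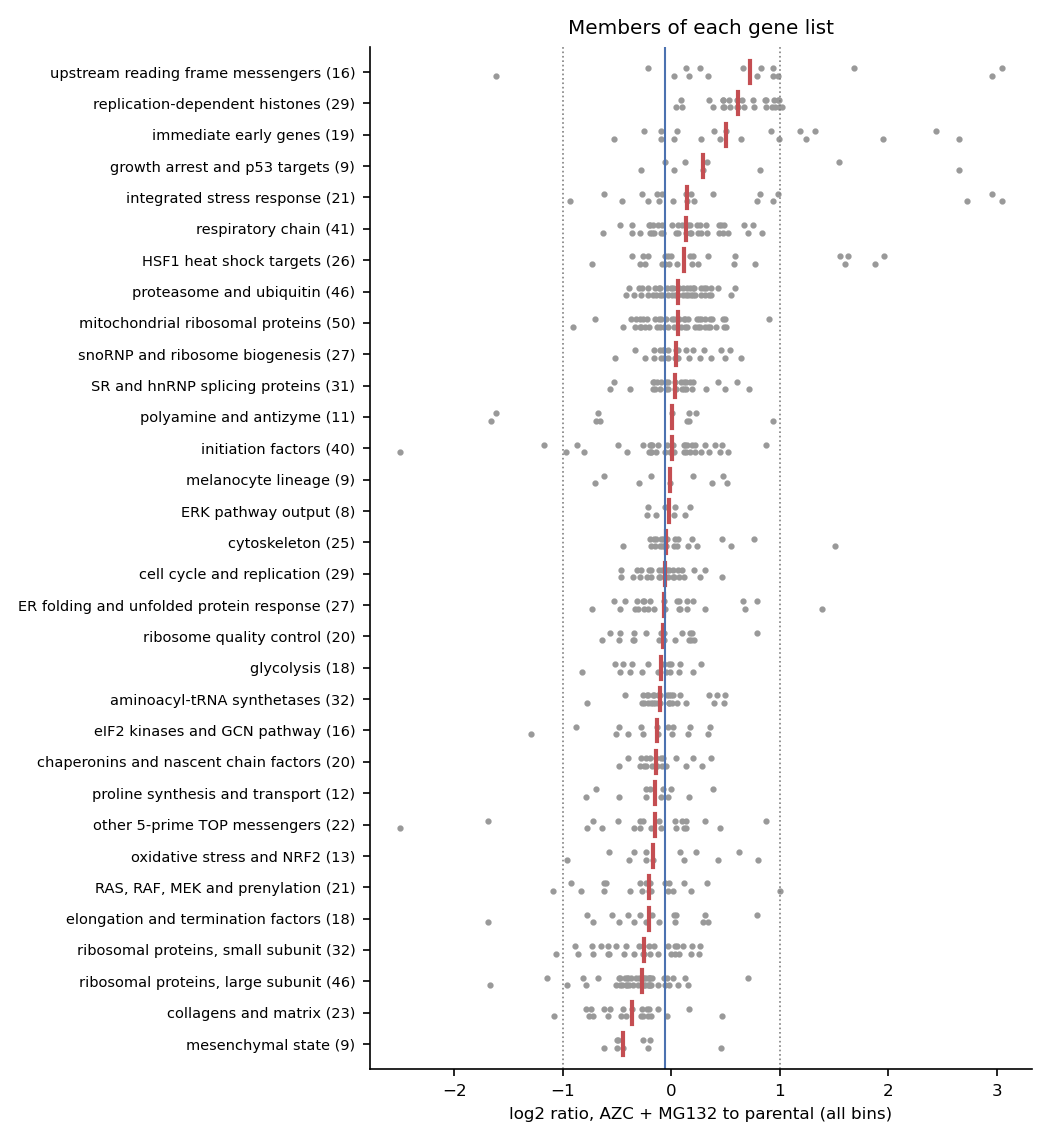
log2 ratio of AZC + MG132 to parental over all bins (x axis) for the members of 32 gene lists (y axis, number compared in brackets). Points are genes, red bars medians, the blue line the median of all genes compared (-0.05) and dotted lines 2-fold. All 29 histones lie above 0, beside 44.7% of all genes, and 41 of 46 large-subunit ribosomal proteins below it.

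The poly(A)-binding protein led the lower genes. PABPC1, which binds poly(A) tails and bridges them to the cap, was at 364.3 in the parental and 64.3 in the treated table, a log2 ratio of -2.50, and at -2.64, -2.47, -2.86 and -2.92 along the coding segments. PABPC3, a near copy that can share its reads, was at -2.82. TPT1, a growth-linked calcium-binding protein with a terminal oligopyrimidine start, was at 363.4 and 112.3. PCBP2, a poly(C)-binding protein, was at 456.3 and 168.8, and was named after its values were seen. SCARA3, a scavenger receptor, was at 56.6 and 14.48, INTS1, a subunit of the Integrator complex, at 72.98 and 23.4, PTPN11, the phosphatase SHP2, at 44.2 and 14.4 and ARFGEF1 at 41.1 and 13.8. PTP4A2, a prenylated phosphatase, was at 54.1 and 21.5 in its 5′ UTR and at 14.8 and 1.71 in coding bins. In the lower genes the median share of coding bins with any depth was 88.5% in the parental and 60% in the treated table, against 91.5% and 83.5% over all genes. In the higher genes it was 80.5% and 89.5%. Both sets were chosen by their depth, so these directions follow from the choice and are no separate finding.

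Genes of polyamine supply lay on both sides. ODC1 was at 130.9 in coding bins in the parental and 35.3 in the treated table, with log2 ratios of -1.30, -1.79, -2.00 and -2.51 from the first to the last segment. ATP13A3, a polyamine transporter, was at 46.1 and 14.6 over all bins, SRM and SMS, the spermidine and spermine synthases, at log2 ratios of -0.67 and -0.66. AZIN1 was higher, as above, and OAZ1, the antizyme that marks ODC1 for degradation, was at 249.98 and 251.5. SAT1, which acetylates polyamines for export, was under the minimum in the parental table at 2.71 and at 9.20 in the treated table. The list's median of 0.01 over 11 members changed sign under 4 of 9 other settings.

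Ribosomal proteins were lower as a group, by little. Of 46 large-subunit genes 41 had log2 ratios below 0, and of 32 small-subunit genes 23, beside 4024 of 7279 genes in all. The medians were -0.27 and -0.26, and neither changed sign under the 9 other settings. Past 2-fold were RPL12 at -1.67, RPLP1 at -1.15 and RPS12 at -1.06, all lower, beside 2.4% of all genes. RPL12, a stalk-base protein, was at 186.8 in the parental and 58.8 in the treated table, and RPS6, the S6 kinase substrate, at 1006.6 and 671.2. List medians were lower in each later coding segment, at 0.10, -0.44, -0.66 and -0.84 in the large-subunit genes and 0.16, -0.30, -0.68 and -0.76 in those of the small subunit, beside 0.24, -0.21, -0.36 and -0.42 over all genes. Their 5′ UTR ratios had medians of 0.25 and 0.33, under the 0.70 of all genes. RPL41 was the highest member, at 0.71, with -0.03 in its first segment and 4.36 in its last, in one of the shortest coding sequences of the genome.

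Ribosomal protein messengers start with a C followed by a run of pyrimidines, the terminal oligopyrimidine tract through which mTORC1 controls them. The annotated starts from RefSeq (GRCh38.p14) are shown because TPT1 and the 3 ribosomal proteins past 2-fold carry the tract, and so do genes near their parental level. In the first 24 bases below, capitals mark an initial C and the C or T that follow it without a break, where the run holds the C and at least 4 more.
RPL12: CCTCTCggctttcggctcggagga
RPLP1: CCCCTTTCCTCagctgccgccaag
RPS12: CTCTTTCCCTgccgccgccgagtc
TPT1: CTTTTCCgcccgctcccccctccc
EEF1A1: CTTTTTCgcaacgggtttgccgcc
EEF2: CTCTTCCgccgtcgtcgccgccat
GAPDH: gtccggatgctgcgcctgcggtag
RPL12 lies at chr9:127451383-127451406 on the minus strand, RPLP1 at chr15:69452818-69452841 on the plus strand, RPS12 at chr6:132814569-132814592 on the plus strand and TPT1 at chr13:45341160-45341183 on the minus strand. EEF1A1 lies at chr6:73521009-73521032 and EEF2 at chr19:3985440-3985463, both on the minus strand, and GAPDH at chr12:6535264-6535287 on the plus strand. These are annotated starts and were not measured here.

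Genes with the tract spanned a wide range. EEF1A1 and EEF2, the elongation factors with tracts of 7 bases, stood at log2 ratios of -0.11 and -0.29, beside -1.69 for TPT1 with the same length. Of the 7279 genes compared, 6104 matched a RefSeq start, and 6.03% of them carried the tract, beside 4.04% of all starts in the table. Their median log2 ratio was -0.14, against -0.05 in the 5736 without it. Among ribosomal proteins the median was -0.27 in the 43 whose annotated start met the limit on the run and -0.25 in the 20 under it. RPL3, with a run of 4, falls under that limit, so these 20 are not messengers shown to lack a tract. Among other genes the median was -0.12 with the tract and -0.05 in the 5716 without it. Of matched genes past 2-fold on the lower side, 7.35% (10 genes) carried the tract, beside the 6.03% of all matched genes. In the 22 other genes known for the tract the median was -0.15, with PABPC1 and TPT1 past 2-fold, EEF1G at -0.78, and EIF4A2 at 0.87.

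Promoters of the genes past 2-fold were searched for elements of the factors named above, since several known stress genes were among them. Of the 63 higher genes, 53 matched a RefSeq promoter of 300 bases, 250 before and 50 after the start. A pair of heat shock units (GAANNTTC or TTCNNGAA, each its own reverse complement) was present in 7 of the 53, beside 10.5% of the promoters of genes compared and 13.7% of all promoters in the table. The cAMP response element TGACGTCA was in 3 of 53, beside 3.77% and 1.98%, and the C/EBP-ATF element (TGATGNAA, or TTNCATCA on the opposite strand) in 3 of 53, beside 1.57% and 3.67%. With counts this small, nothing particular to the higher genes is read from them. The matches in the stress genes are shown with 8 bases on each side, the element in capitals.
HSPA1A: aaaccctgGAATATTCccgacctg
DDIT4: cggatcctTTCCAGAAagggggcg
DUSP1: agggcgggTGACGTCAccgccccg
IFRD1: ccacagagTGACGTCAggtggcgg
HERPUD1: gcggcgggTTGCATCAgcccgtgc
HSPA1A is shown from chr6:31815429-31815452, DDIT4 from chr10:72273684-72273707, IFRD1 from chr7:112450400-112450423 and HERPUD1 from chr16:56931958-56931981, all on the plus strand, and DUSP1 from chr5:172771305-172771328 on the minus strand. HSPA1L begins on the opposite strand beside HSPA1A and holds the same match. A match is a string of letters and not a bound site, and depth of footprints does not measure promoter use.

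Other groups stood near the parental level. Proteasome and ubiquitin genes, which the factor NFE2L1 raises when the proteasome is blocked, had a median of 0.07 over 46 members. With 0.866% of all genes past 2-fold on the higher and 2.4% on the lower side, the 0 of 46 members past it are near the background. PSME2 was at 0.58, PSMB6 at 0.55 and NFE2L1 itself at -0.39. Of 27 genes of the endoplasmic reticulum, HERPUD1, a part of its degradation machinery, was past 2-fold, at 24.4 in the parental and 63.8 in the treated table. XBP1 was at 0.79, HSPA5 at 1428.9 and 2258.1, and HSP90B1 at -0.25. The list's median of -0.07 changed sign under 2 of 9 other settings. Of the 20 factors of stalled ribosomes compared, 8 were above 0, beside 44.7% of all genes, and the median was -0.08. PELO, which splits stalled ribosomes, was at 13.998 and 24.1, ZNF598, the ligase that marks collided ones, at 24.8 and 16.7, and LTN1, the ligase for their unfinished chains, at 28.03 and 26.3.

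Of 4 eIF2 kinases, 3 lay below 0, beside 4024 of 7279 genes in all, and no direction of the group is read from so few. EIF2AK4, the eIF2 kinase GCN2, was past 2-fold lower at 23.4 in the parental and 9.56 in the treated table, and EIF2AK2, the kinase PKR, was at 64.6 and 35.1. EIF2AK3 and EIF2AK1, the kinases PERK and HRI, were at log2 ratios of 0.34 and -0.26, and the list's median was -0.13 over 16. EPRS1, which charges tRNA with proline, was at 242.9 and 258.7 in coding bins, and the synthetases had a median of -0.11 over 32, with IARS1 at -0.78. Proline synthesis and transport had a median of -0.15 over 12, with PYCR1 at -0.70, P4HA1, a collagen prolyl hydroxylase subunit, at -0.79 and the carrier SLC38A2 at 0.38.

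Of 35 collagens and other matrix genes on the list, many of them rich in proline, 23 were compared. Of these 21 were below 0, beside 4024 of 7279 genes in all. The list's median of -0.36 did not change sign under the 9 other settings. COL11A1 was at 1057.3 in the parental and 623.5 in the treated table, COL18A1 at 641.4 and 382.6, and HSPG2, perlecan, was past 2-fold at 98.4 and 46.4. In COL11A1 the ratio was of like size along the coding sequence, from -0.63 to -0.95 by segment. Several of these messages are very long, and length was not compared. The mesenchymal list, which shares FN1, SPARC and others with it, had a median of -0.44 over 9, with VIM at -0.49 and CDH2 at -0.51. Respiratory chain subunits had a median of 0.14 over 41 and mitochondrial ribosomal proteins of 0.06 over 50. In the oxidative stress list, TXNRD1, thioredoxin reductase, was at 0.79 and PRDX1 at 0.62, while FTH1, ferritin heavy chain, was at -0.96. HMOX1, heme oxygenase, was under the minimum in the parental table at 3.52 and at 12.2 in the treated table. FTL, ferritin light chain, was under it in the treated table, at 15.2 and 7.03, as were MAPK3, the kinase ERK1, at 14.5 and 6.39, SPRED1, an inhibitor of RAS signalling, at 10.5 and 5.12, and VARS2, the mitochondrial valine synthetase, at 13.7 and 6.68. The minimum fixes the direction of such genes.

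In most genes a larger share of footprints stood near the beginning of the message in the treated table. The 5′ UTR held 10.0% of all depth in the parental and 15.7% in the treated table, the coding sequence 85.6% and 78.1% and the 3′ UTR 4.38% and 6.15%. Of 6091 genes with depth over 100 in the 5′ UTR of both tables, 2183 passed 2-fold on the higher side there, 35.8%, and 3.04% on the lower, with a median log2 ratio of 0.70. From coding bins alone, 51 of 7260 genes passed it on the higher side, 0.702%, and 4.55% on the lower, with a median of -0.15. From the 3′ UTR, 1265 of 4172 genes passed it on the higher side, 30.3%, and 7.12% on the lower, with a median of 0.47. Within the same gene the 5′ UTR ratio exceeded the coding ratio in 85.9% of 6091 genes. Unnamed rows held 3.93% of depth in the parental and 6.02% in the treated table.

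**Figure D4:**
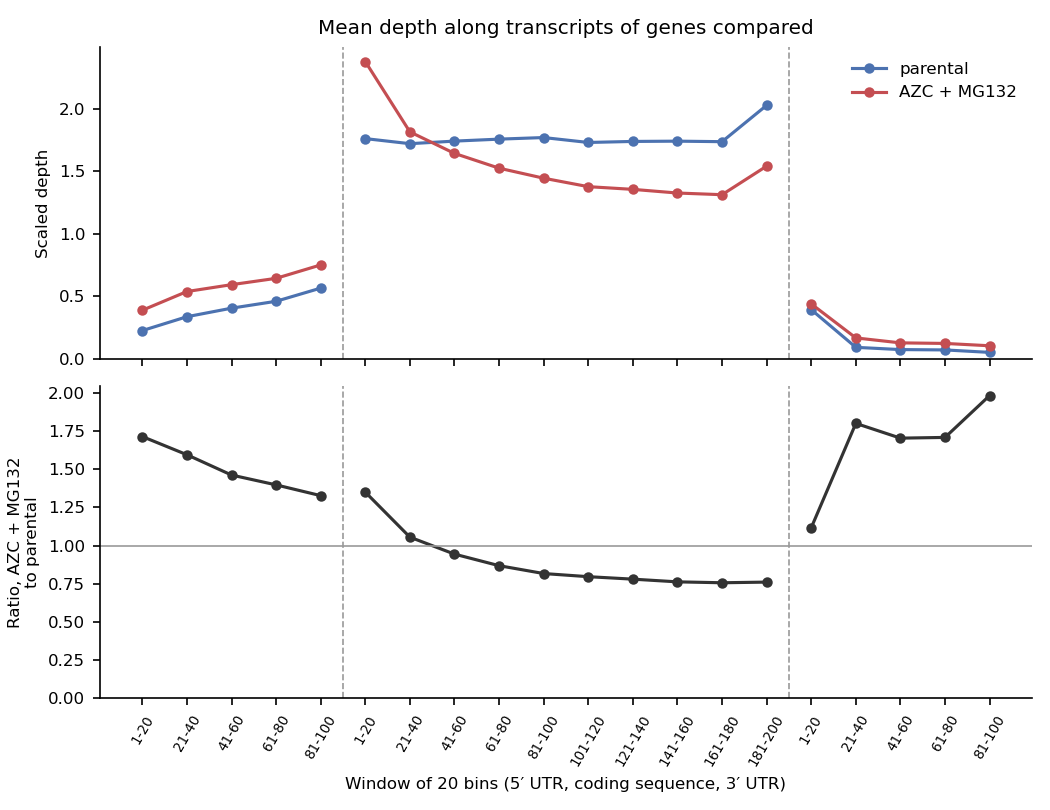
Upper panel: mean depth of genes compared in windows of 20 bins (x axis), each gene scaled to its mean level in both tables so that genes weigh alike, 1 being an even spread (y axis). Lower panel: ratio of the AZC + MG132 to the parental value, which falls from 1.71 at the 5′ end to 0.76 in the last 3 coding windows and is 1.98 at the 3′ end.

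The ratio was lower window by window from the cap to the stop codon, save at the first and last coding windows, and higher again after it. With each gene weighed alike, it was 1.71 in the first 20 bins of the 5′ UTR, 1.33 in the last 20, 1.35 in the first 20 coding bins and 1.05 in the next. It was 0.94 in coding bins 41 to 60, 0.82 in bins 81 to 100 and 0.76 in the last 20. Coding windows were thus above the parental value in 2 of 10 cases, both at the start. In the 3′ UTR it was 1.12 in the first 20 bins and between 1.70 and 1.98 in the other windows, where scaled depth was at most 0.17. By window the parental profile was nearly flat along the coding sequence, between 1.72 and 1.77 in its first 9 windows and 2.03 in the last. The treated profile went from 2.37 in the first window to 1.31 in the ninth. In single bins both had a peak near the start codon, up to 2.26 in the parental and 3.53 in the treated table.

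**Figure D5:**
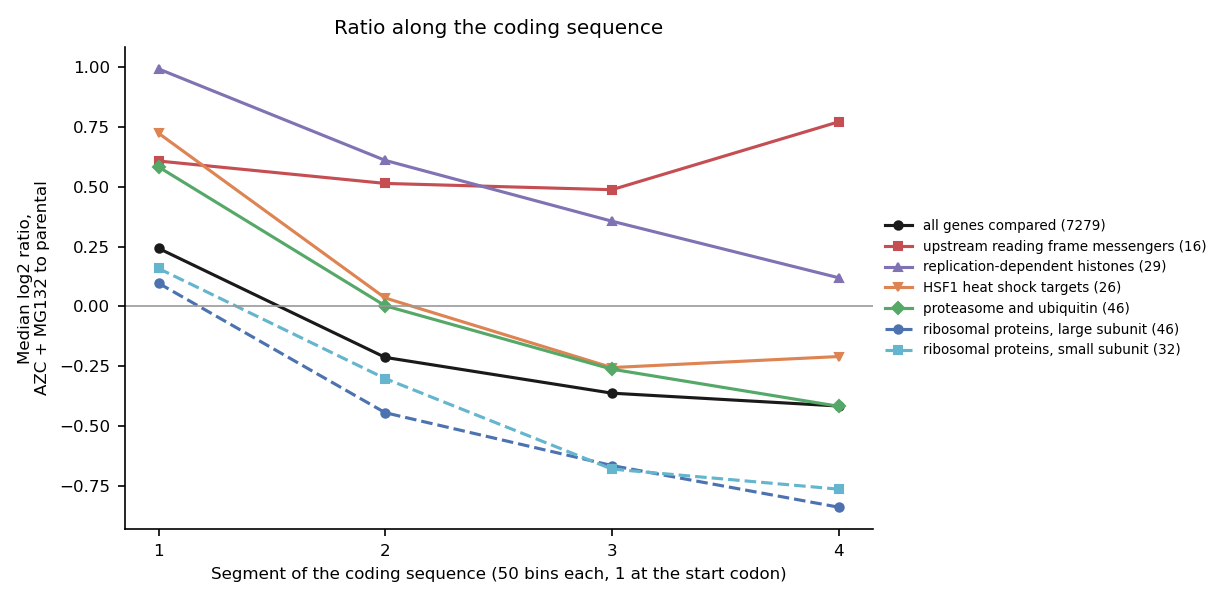
Median log2 ratio of AZC + MG132 to parental (y axis) in 4 equal segments of the coding sequence (x axis, 50 bins each, 1 at the start codon) for all genes compared and 6 gene lists, number of genes in brackets. All genes go from 0.24 to -0.42, the upstream reading frame list ends at 0.77 and the ribosomal protein lists end lowest.

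Per gene the 5′ share was the mean depth of the first 20 coding bins over the mean of all 200. Its median was 0.93 in the parental and 1.42 in the treated table. The 5′ shift, the log2 ratio of the treated to the parental share, had a median of 0.60 over 7245 genes and was above 0 in 78.7% of them. It was present at each level of depth, with 68.6%, 74.5%, 81.5% and 90.1% of genes above 0 in 4 equal groups of genes from the lowest to the highest level. Among genes past 2-fold, 41 of 63 higher genes and 73.4% of the lower ones had a shift above 0. ATF4 had a shift of -1.80 and ATF5 of -1.26, the reverse of most genes. Median log2 ratios by coding segment were 0.24, -0.21, -0.36 and -0.42 over all genes and 0.61, 0.51, 0.49 and 0.77 over the messengers with upstream frames. HSF1 targets stood at 0.72 in segment 1 and -0.21 in segment 4, with a median shift of 0.98 and 24 of 26 above 0. Chaperonins and nascent chain factors had shifts above 0 in 20 of 20 and proteasome genes in 41 of 45.

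The most extreme shifts could not be read as folds. Each of the 10 genes that the naming rule picks for its shift had under 300 in depth in the first 20 coding bins of a table, and 3 had none in a table. With over 300 required in both tables, a limit chosen after the values were seen, 3448 genes above the median level remained. The largest shifts toward the start were then in RDH11 at 3.16, SEC23IP at 2.95 and PTP4A2 at 2.91, and the largest away from it in SF3B5 at -1.86, ATF4 at -1.80 and HEXIM1 at -1.79. ATF4 rested on a depth of 7800.6 in the parental and 35749.7 in the treated table in those bins, the deepest of these genes.

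The widest 5′ UTR differences were in genes of several kinds. The 5′ UTR of MYL6, a myosin light chain, was at 0.48 in the parental and 11.1 in the treated table, with a log2 ratio of 0.38 in its coding bins. The 5′ UTR of UTP3 was at 0.39 and 8.27, of NMD3, an export adaptor of the large ribosomal subunit, at 0.43 and 7.88, of HSPA1A at 1.55 and 27.8 and of ZFR at 0.31 and 5.28. On the lower side the 5′ UTR of RPS24 was at 62.8 and 11.9, of MAP2K2, the kinase MEK2, at 7.37 and 1.52 and of ACOT7 at 2.41 and 0.30. Several of these 5′ UTR ratios rest on little depth in a table, so their size is uncertain. MYL6, UTP3, NMD3 and ZFR were at 0.48 or below in the parental table. ACOT7 was barely above the minimum depth of 100 in the treated table. In the list of RAS, RAF and MEK genes, MAP2K2 was past 2-fold over all bins at -1.09 and RHOB at the limit on the higher side, and neither call held under all of the other settings. Over all bins HSPA1A was at a log2 ratio of 1.88, MYL6 at 0.55, NMD3 at 0.29 and ZFR at 0.00.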

How the data were processed

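Ribosome-protected fragments of CHL-1 cells were sequenced in 4 libraries of the groups compared. Bowtie2, TopHat2 and the build hg19 are named, with no version, in the submitters' processing notes. The authors deposited 1 table per condition with values on a log2 scale, log2(x + 1) rounded to 2 decimals, where x was read here as summed depth per bin. How libraries were pooled, and how a UTR shorter than its bins was filled, are steps that the sources used here do not give. Tables were matched to groups by the condition in their names.

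Depth was taken as 2 to the power of the value, less 1. In coding bins each deposited value also carries the value of the row above, which was subtracted; coding bins with a deposited value under 4 were then whole numbers, within the rounding error of 2-decimal values, in 100% of cases in both tables. In deeper bins rounding leaves small fractions. Each table was scaled to its total. A gene was read from its NM_ transcript with the highest mean level, named through the RefSeq table of GRCh38.p14 (names only). A log2 ratio used a pseudocount of 0.5. Ratios of single regions needed a depth over 100 in a UTR or 300 in coding bins of both tables. Ratios of coding segments had no depth minimum of their own. No counting interval is given since depth is in bases, and no p-value is given because no table has a replicate. Genes named are the 12 highest and 12 lowest ratios above the median level, per list the 2 largest and the 2 most abundant, a fixed set, and the 5 highest and lowest 5′ shifts and 5′ UTR ratios; other names serve as list members. Some genes the rule names are not reported here. The members and the 33 gene lists were chosen with earlier results of these data known. Steps were tested on simulated tables with Python 3.11.15, numpy 2.4.6, pandas 2.3.3 and matplotlib 3.10.9. Alternatives covered scaling, bins, the carried value, level minimum, pseudocount, transcripts and the window of the 5′ shift. A comparison by proline content and protein length was not run.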

Additional observations from a re-analysis of the deposited data

Results flagged for a closer look

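Genes listed for the treated cells with no row in the parental table stood outside the comparison, and 13 of them were above the treated level minimum. They were led by CHAC1 at a normalised depth of 27.1, SH3TC2 at 20.7, ADGRV1 at 13.4 and AHNAK2 at 13.2. TNFSF9, a ligand of activated immune cells and stressed cells, was at 8.09. The rule by which the authors' tables list a transcript is not given, so a missing row is not read as a level of 0.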

How the results depend on the processing

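No paired analysis was possible because each table pools both libraries of its group, and for the same reason no library could be left out. Of genes past 2-fold, 30 of 63 higher and 53.1% of lower ones were past it in each of the 9 other settings in which they were compared. One changed direction, ACTA2, at a log2 ratio of 1.12 with the coding body alone. Of those the report names, H2BC11, HSPG2, IER2, MAP2K2, PMAIP1, RHOB and RPS12 were under 2-fold in some. Genes past 2-fold, as percent of genes compared, were 0.866 higher and 2.40 lower. They were 1.52 and 1.74 when totals left out the most abundant 1% of rows, 1.35 and 2.83 with coding bins alone, 2.16 and 3.59 with the coding body alone, 0.569 and 1.54 with the values as deposited, 0.314 and 1.004 with a level minimum 4 times higher, 2.44 and 4.34 without one, and 1.23 and 3.04 with depth summed over transcripts. With the median ratio set to 0 they were 1.24 and 1.91. Of all calls 26.5% were higher, 39.3% with the median set to 0, 46.6% without the most abundant rows and 37.6% with the coding body. Coding bins alone kept 46 of the 63 higher calls and 76% of the lower ones. Medians of 9 lists changed sign under some setting. The median 5′ shift ranged from 0.44 to 0.71, with 74.1% to 87.1% of genes above 0. The 5′ UTR share was 5.72 percentage points higher in the treated table. The median share over genes was 4.59 points higher there, at 9.95 against 5.35. The coding share differed by -7.49 points, by -6.12 without the most abundant rows and by -6.20 between the medians over genes. The 3′ UTR share was 1.77 points higher, and 0.62 between the medians over genes. Leaving out the 42 genes with near-equal 5′ UTR and coding depth, chosen after seeing the data, gave a median 5′ UTR ratio of 0.71. The comparison by proline content and length was not run. The number of distinct fragments behind each depth is unknown.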
